A study of Canis lupus familiaris with 51 samples.

Results

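The comparison concerns 26 of 51 canine cutaneous mast cell tumors (MCTs), selected on their own KIT signal: the 13 tumors with the highest KIT score (KIT-high) and the 13 with the lowest (KIT-low). The score of a tumor was the mean, over the 3 array probes for KIT, of the z score of the log2 quantile-normalized signal across the 51 tumors. The question was which other transcripts differed between tumors rich and poor in KIT RNA. All tumors arose spontaneously in pet dogs, and a piece from the center of each mass, taken at surgery, was hybridized to 1 single-dye Agilent canine array. The study divides its MCTs into differentiated and undifferentiated ones. It classed 18 reference tumors by histological grade and mitotic index and predicted the class of the other 33 from these same arrays, so the class is not independent of the values analyzed here. The sample labels do not give the class, which was read from the study's publication, for 1 tumor by elimination. The KIT-high group held 11 differentiated and 2 undifferentiated tumors, from 6 male and 7 female dogs aged 4 to 14 years (median 8). The KIT-low group held 8 differentiated and 5 undifferentiated tumors, from 4 male and 9 female dogs aged 4 to 13 years (median 10, 12 ages given). Crossbred dogs gave 4 KIT-high and 6 KIT-low tumors, boxers 2 and 2, and Labrador retrievers 3 and 1. The labels tell nothing of KIT mutations or of KIT protein, and no untreated or normal skin sample belongs to the comparison.

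KIT is the receptor tyrosine kinase through which stem cell factor, the product of KITLG, keeps mast cells alive and lets them mature. Keratinocytes, fibroblasts and endothelial cells of the skin make the ligand, while the mast cell carries the receptor together with the IgE receptor and granules filled with proteases, heparin and amines. KIT is often mutated in canine MCTs and is the target of the kinase inhibitors used to treat them. In RNA of a whole tumor piece, fewer mast cells and less KIT RNA per mast cell cannot be told apart.

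The 3 KIT probes, which define the groups, are 60-base oligonucleotides that the files place on chromosome 13, at chr13:50120926-50122041 for A_11_P0000019899, chr13:50120229-50120401 for A_11_P084686 and chr13:50093321-50107395 for A_11_P053861. The files name neither the genome build nor exons, and the longer spans are far wider than 60 bases. All 3 are assigned to the transcript NM_001003181. They are shown in full, 5′ to 3′ and in lower case, because everything below depends on what they measured.
A_11_P0000019899: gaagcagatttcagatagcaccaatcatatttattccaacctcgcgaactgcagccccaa
A_11_P084686: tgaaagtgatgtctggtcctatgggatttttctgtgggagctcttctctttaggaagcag
A_11_P053861: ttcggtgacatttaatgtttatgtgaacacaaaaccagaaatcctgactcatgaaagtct
The probes moved together, with a Pearson r between 0.978 and 0.994 over the 51 tumors. Each was well above background on 50 or 51 arrays.

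Levels below are normalized log2 intensities, so that 1 unit is a doubling. For A_11_P0000019899 the KIT-high tumors ranged from 13.66 to 15.04 (median 14.02) and the KIT-low tumors from 9.11 to 12.58 (median 12.40). The means were 14.25 ± 0.48 and 11.91 ± 1.02 (SD, n = 13 each), a 5.08-fold difference that the choice of tumors produced and that was therefore not tested. A_11_P084686 gave 14.15 ± 0.43 and 11.88 ± 1.0, and A_11_P053861 gave 9.37 ± 0.38 and 6.68 ± 1.08 (SD, n = 13 each). The lowest KIT-high score was 0.616 (T107) and the next tumor, T56, had 0.608. On the other side, T121 was the last KIT-low tumor at -0.612 and T87, at -0.391, stayed out. The upper border thus runs through a continuum, and the lower one lies in a gap.

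Undifferentiated tumors lay at both ends. The highest scores belonged to the undifferentiated tumors T90 (1.74) and T49 (1.62), and the 5 lowest to T80 (-0.939), T104 (-1.63), T57 (-2.08), T114 (-2.12) and T77 (-3.93), undifferentiated as well. Over all tumors the median score was 0.110 in the 12 undifferentiated and 0.133 in the 39 differentiated MCTs, with SDs of 1.68 and 0.621. The undifferentiated class was thus about as KIT-rich at the median and spread more widely. The class was a covariate in the models below, apart from alternatives that left it out and fits in differentiated tumors alone.

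**Figure D1:**
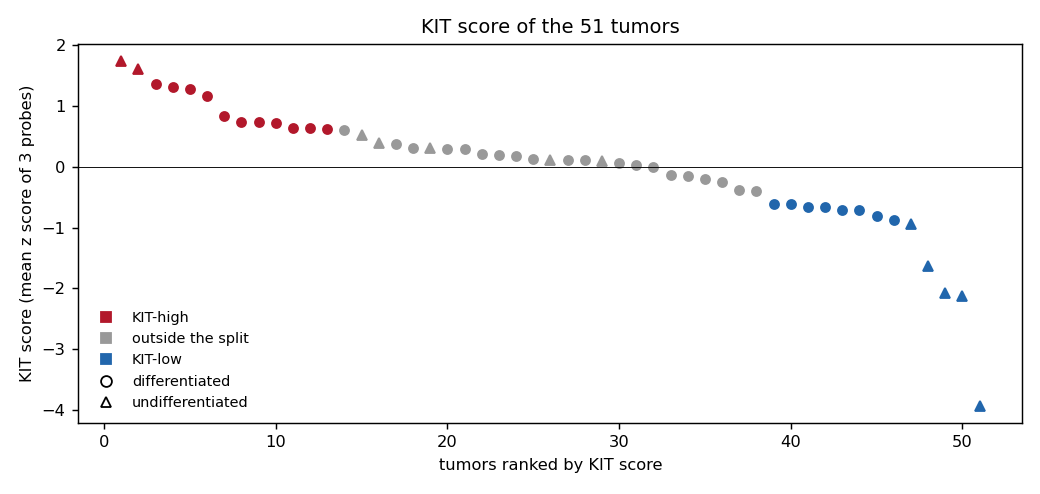
KIT score (mean z score of the 3 probes, y axis) of the 51 tumors in rank order (x axis). Colors mark the KIT-high, KIT-low and remaining tumors, circles differentiated and triangles undifferentiated MCTs. The 2 highest and the 5 lowest scores are undifferentiated tumors, down to -3.93 in T77.

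Between 59.4% and 71.4% of spots were well above background on KIT-high arrays and between 66.6% and 74.8% on KIT-low arrays. The groups shared 7 of the 15 slides and 6 of the 9 scan sessions. The mast cell genes CMA1, FCER1A, MS4A2, SRGN and SLC18A2 were well above background on all 26 arrays. GATA2, TAL1, TPSAB1, CPA3, HDC, IL1RL1 and MKI67 had no probe under these names.

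KIT-high MCTs had more RNA of, among others, the transporter SLC45A3, the Rab regulator DENND4A, the transcription factor MITF and the IgE receptor chains FCER1A and MS4A2. They had less RNA of a larger number of genes, the KIT ligand KITLG among them. The comparison used limma with the class as a covariate, on 43599 probes other than those of KIT. Calling a probe took a p below 0.01 after Benjamini-Hochberg adjustment together with a 2-fold or larger difference. In all, 463 probes were called, 1.06% of those tested, 155 higher in KIT-high tumors (0.356%) and 308 lower (0.706%). The median size of a called difference was 1.21 (log2) among the higher and 1.69 among the lower probes. Over all probes the median difference was 0.087. The called probes carried 189 gene symbols, 58 of them higher. Of these genes, 109 had several probes, and several were called for 52, for example 5 of 5 called probes of GPM6A, 3 of 3 of DENND4A, 5 of 5 of NFIB and 3 of 3 of ITGA6. None had probes called in both directions.

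The number of calls rested on single tumors and on the adjustment. Without T47, T50, T81, T49, T103 or T90 it was 206, 220, 224, 231, 239 and 257, and without T100 or T121 it was 832 and 954. Among the 19 differentiated tumors alone 17 probes were called, 9 higher and 8 lower. All 463 probes kept their sign there, with medians of 1.10 and -1.59, but those tumors are part of the same 26. With scan session as a block 203 probes were called. Of the 48 named genes followed through the alternatives, 33 lost their call in differentiated tumors alone and 25 with scan session as a block. Only the 15 largest differences in each direction and KITLG, MITF, FCER1A and MS4A2 had a call to lose, so nearly all calls were lost in differentiated tumors alone.

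Among genes higher in KIT-high MCTs, the 15 largest differences were those of ZNF474, SLC45A3, SLC29A4, MYLK3, DENND4A, ANK1, SYTL3, ATP6V0D2, CCDC68, ABCC5, HPN, EPB41L3, MAG, EPDR1 and INPP4B. SLC45A3, a membrane transporter, ranged from 9.93 to 13.19 (median 10.74) in KIT-high and from 4.98 to 10.73 (median 8.63) in KIT-low tumors. The groups overlapped, and the class-adjusted difference was 2.28 ± 0.463 (SE; limma adjusted p = 0.00536). SLC29A4, which carries monoamines across the plasma membrane, spanned 5.82 to 8.40 (median 7.17) against 2.54 to 7.27 (median 5.05), a difference of 2.05 ± 0.387 (SE; limma adjusted p = 0.00348). Both were also among the genes most like the KIT score over the 51 tumors, with r = 0.795 and 0.746.

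The zinc finger gene ZNF474 ran from 6.42 to 9.96 (median 9.33) in KIT-high and from 4.27 to 8.96 (median 6.33) in KIT-low tumors. Its difference was 2.28 ± 0.311 (SE; limma adjusted p = 0.000634), and in the same model the undifferentiated tumors were lower, with a class difference of -2.09. DENND4A, an exchange factor for Rab GTPases, was the only one of the 15 without overlap by the probe used. Its lowest KIT-high tumor had 7.22 and its highest KIT-low tumor 7.11, and the difference was 1.57 ± 0.219 (SE; limma adjusted p = 0.000759). By the other DENND4A probes, called as well, the groups overlapped.

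Several of the other genes work in vesicles and membranes. SYTL3, a Rab27 effector of the synaptotagmin-like family, differed by 1.5, ATP6V0D2, a subunit of the proton pump that acidifies granules, by 1.46, and the nucleotide exporter ABCC5 by 1.41. The lipid phosphatase INPP4B, which limits phosphoinositide signaling, differed by 1.34, the serine protease HPN by 1.37 and the sialic acid-binding MAG by 1.35. MYLK3 and ANK1 were dim in the KIT-low group, well above background on 6 and 2 of 13 arrays. Calls for ZNF474, DENND4A, SYTL3, ATP6V0D2, HPN, EPB41L3, EPDR1 and INPP4B survived the omission of any single tumor, but each was lost in 1 (HPN) to 4 (ATP6V0D2, EPB41L3) of 16 other alternatives. Those of MYLK3, ANK1, CCDC68 and MAG were lost in 16, 17, 14 and 20 of 26 omissions, those of SLC45A3 and ABCC5 in 5 each and that of SLC29A4 in 1.

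**Figure D2:**
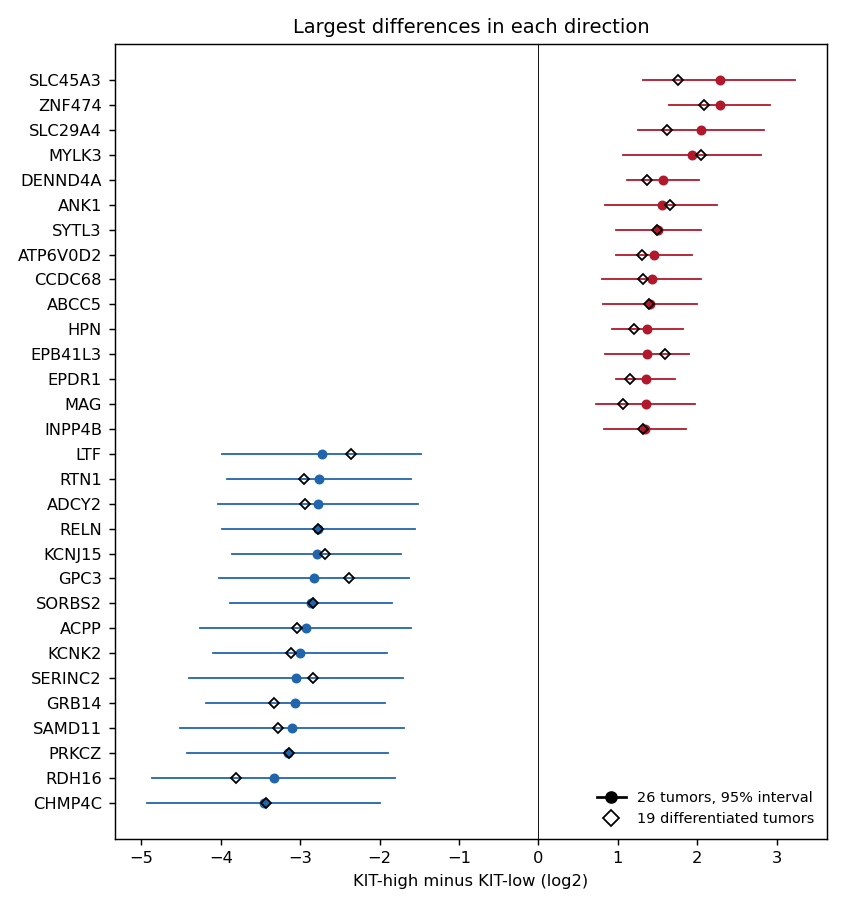
Class-adjusted log2 difference between KIT-high and KIT-low tumors (x axis) for the 15 genes with the largest called difference in each direction (y axis). Circles with bars give the estimate and its 95% interval from the 26 tumors, and diamonds the estimate from the 19 differentiated tumors alone. All 30 diamonds lie on the same side of 0 as their circle.

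Transcription factors of the mast cell lineage were partly higher in KIT-high tumors. Of 29 measured, MITF, IKZF1 and GFI1 were called higher and none lower, with a median difference of 0.28 against 0.06 over 11679 genes. Over all genes, at 1 probe each, 0.402% were called higher and 0.899% lower. MITF, which controls mast cell development and KIT transcription, ranged from 11.28 to 12.64 (median 11.79) in KIT-high and from 9.20 to 11.80 (median 10.49) in KIT-low tumors (n = 12 each, flagged spots left out). The groups overlapped, the KIT-low tumor T100 holding the 11.80, and the difference was 1.2 ± 0.216 (SE; limma adjusted p = 0.00312). A second MITF probe gave 1.26.

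IKZF1, the lymphoid and mast cell regulator Ikaros, had levels of 8.53 to 9.69 (median 9.00) in KIT-high and 6.94 to 8.87 (median 7.72) in KIT-low tumors, a difference of 1.28 ± 0.229 (SE; limma adjusted p = 0.00316). The repressor GFI1 differed by 1.31 (limma adjusted p = 0.00824). For GATA1, a factor that drives mast cell protease genes, the difference of 1.09 had an adjusted p of 0.0553. FLI1 (0.84, adjusted p = 0.00325) passed the limit on p but not that on the fold.

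Both chains of the IgE receptor that mark mast cells were higher in KIT-high tumors. FCER1A, the chain that binds IgE, lay between 16.93 and 17.35 (median 17.07) in the 10 KIT-high tumors with an unflagged spot and between 14.63 and 16.88 (median 16.07) in the 13 KIT-low tumors. The groups did not overlap, and the difference was 1.0 ± 0.206 (SE; limma adjusted p = 0.00668), at the limit of calling. Its call was lost in 13 of 26 omissions of a tumor, and its second probe gave 1.19. By that second probe, also called, the groups overlapped. MS4A2, the beta chain, spanned 15.50 to 16.70 (median 16.19) against 13.89 to 16.01 (median 15.05), with 11 tumors each, and differed by 1.12 ± 0.244 (SE; limma adjusted p = 0.00927). That call was lost in 20 omissions. FCER1G, the gamma chain, showed a difference of 1.03 with an adjusted p of 0.0129.

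Among the 25 measured genes of IgE receptor signaling 3 were called higher, FCER1A, MS4A2 and the adaptor GRAP2 (1.22), and none lower. The median difference of this list, 0.64, was the highest of the 24 lists examined. Kinases downstream of the receptor gave smaller values, 0.79 for BTK (adjusted p = 0.0378), 0.64 for SYK (adjusted p = 0.246) and 0.45 for LYN (adjusted p = 0.0746). The list of 27 surface and identity genes of mast cells, which also counts FCER1A and MS4A2, had 4 called higher. Besides these chains they were MLPH, which links Rab27 to myosin, and the adhesion molecule CADM1, with 1.22 and 1.01, and the collagen-binding integrin ITGA2 was called lower, with -1.85. ENPP3, a basophil and mast cell surface enzyme, showed 1.30 with an adjusted p of 0.0700.

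Of 23 measured granule genes, 1 passed both limits as higher, against 0.402% of all genes. At a limma adjusted p under 0.05 alone, 8 of 23 granule genes were higher, against 564 of all 11679 genes. The gene called was the lysosomal protease CTSD, with 11.08 to 12.90 (median 12.13) in KIT-high and 10.14 to 11.65 (median 10.88) in KIT-low tumors. Its difference was 1.17 ± 0.228 (SE; limma adjusted p = 0.00428). The median of the list was 0.36. Chymase, CMA1, a serine protease of the granule, showed a difference of 0.96 ± 0.304 (SE; limma adjusted p = 0.0531), and the monoamine transporter SLC18A2, which loads histamine into granules, 1.24 ± 0.287 (SE; limma adjusted p = 0.0113). Neither was called. SRGN, the core protein of granule proteoglycans, gave 0.72 (adjusted p = 0.133), and cathepsin G, CTSG, was well above background on 6 KIT-high and 9 KIT-low arrays. In eicosanoid synthesis HPGD, which inactivates prostaglandins, was called among 17 genes, with 12.41 to 13.63 (median 13.16) against 9.98 to 12.92 (median 11.90) and a difference of 1.32 ± 0.264 (SE; limma adjusted p = 0.00478). ALOX15 (1.79, adjusted p = 0.0320), PTGS1 (1.25, adjusted p = 0.0399) and HPGDS (0.74, adjusted p = 0.126) were not called.

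The ligand was lower where the receptor was higher. KITLG ranged from 5.6 to 7.78 (median 7.59) in KIT-high tumors and from 7.94 to 10.59 (median 8.62) in KIT-low tumors. No KIT-high tumor reached the lowest KIT-low one, and the difference was -1.57 ± 0.280 (SE, n = 13 each; 95% interval -2.15 to -0.99; limma adjusted p = 0.00263), or 2.97-fold. The call survived the omission of any single tumor. It was lost in 3 of 16 other alternatives, namely in differentiated tumors alone, with scan session as a block and with keratinocyte marker signal as a covariate, where the difference was -1.54 (limma adjusted p = 0.0128). A probe without gene symbol 9.92 kb away on the same chromosome, TC59876, gave -1.64 and did not overlap between the groups either. A closer probe, CF407276, at 1.71 kb, gave 0.12 (adjusted p = 0.613).

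Downstream of the receptor, 2 of 41 measured genes of KIT signaling were called higher and, besides KITLG, none lower. PTPN6, the phosphatase SHP-1 that dampens KIT and other receptors, lay between 12.81 and 14.15 (median 13.30) in KIT-high and between 10.38 and 13.42 (median 12.11) in KIT-low tumors, a difference of 1.04 ± 0.230 (SE; limma adjusted p = 0.00878). The other was GRAP2. The docking protein DOK1 (0.95, adjusted p = 0.00975) and the kinase FYN (0.79, adjusted p = 0.0156) did not reach the limits. The median of the list was 0.22.

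**Figure D3:**
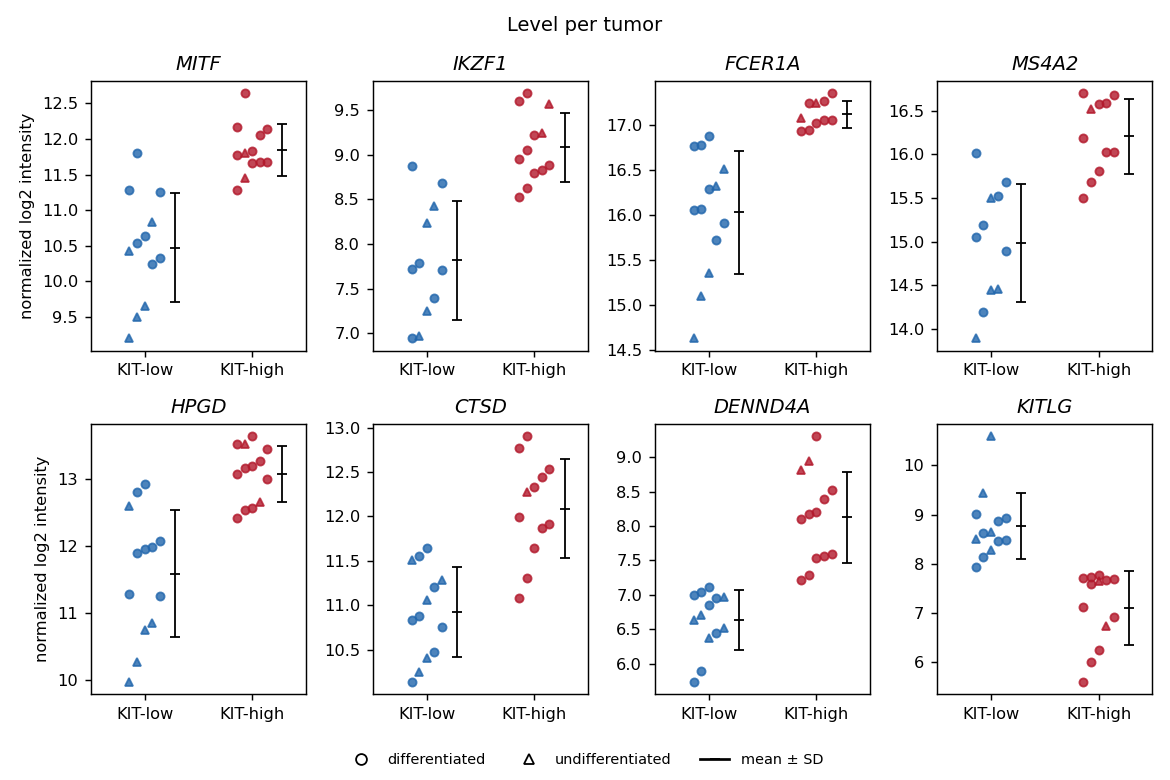
Normalized log2 intensity (y axis) of 8 genes in the 13 KIT-low (blue) and 13 KIT-high (red) tumors, spots flagged as outliers left out. Circles are differentiated and triangles undifferentiated tumors, and the bars give mean ± SD. By the probes drawn, FCER1A, DENND4A and KITLG do not overlap between the groups.

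Of the called probes, 10 did not overlap between the groups, among 37 such probes in all (0.0849% of those tested). Of these 10, those with a gene symbol were probes of DENND4A, FCER1A, KITLG and FBXO32, a muscle and stress ubiquitin ligase subunit (-1.91). Other called probes of DENND4A, FCER1A and FBXO32 did overlap. The oligonucleotides behind the first 3 are shown because the separation of these named genes rests on them. They lie, by the files, at chr30:33013431-33018274, chr38:25696473-25696532 and chr15:32613497-32614168.
DENND4A: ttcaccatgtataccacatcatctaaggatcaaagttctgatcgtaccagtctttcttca
FCER1A: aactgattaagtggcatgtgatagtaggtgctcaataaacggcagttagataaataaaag
KITLG: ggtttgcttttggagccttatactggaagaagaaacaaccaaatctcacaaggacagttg
None shares a run of more than 7 bases with a KIT probe on either strand. The rest of the KIT transcript was not compared.

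Among genes lower in KIT-high MCTs, the 15 largest called differences were those of CHMP4C, RDH16, PRKCZ, SAMD11, GRB14, SERINC2, KCNK2, ACPP, SORBS2, GPC3, KCNJ15, RELN, ADCY2, RTN1 and LTF, between -3.46 and -2.73. CHMP4C, a subunit of the ESCRT machinery that cuts membranes, ranged from 1.92 to 6.45 (median 4.10, n = 12) in KIT-high and from 4.81 to 9.71 (median 8.46) in KIT-low tumors, a difference of -3.46 ± 0.712 (SE; limma adjusted p = 0.00617). PRKCZ, the atypical protein kinase C of cell polarity, spanned 4.10 to 9.80 (median 7.64) against 7.97 to 12.14 (median 11.06), a difference of -3.16 ± 0.613 (SE; limma adjusted p = 0.00407). In both genes the groups overlapped. Many of the 15 were dim in KIT-high tumors, GRB14 being well above background on 1 of 13 arrays, SAMD11 on 3, SERINC2 and SORBS2 on 4, CHMP4C on 5, GPC3 on 6 and ADCY2 and RTN1 on 7, so their sizes and order are uncertain. Lactoferrin, LTF, a product of glands and neutrophils, differed by -2.73, with 6.68 to 11.40 (median 9.03) against 9.38 to 15.24 (median 11.60). The potassium channel KCNK2 was not well above background on any KIT-high array, so that its level there is only a bound. The size of its difference, -3, is therefore uncertain (measured means 2.81 and 5.72; limma adjusted p = 0.00249). It shrank to -0.87 in 1 alternative, and the groups overlapped, with 2.5 in the KIT-low tumor T57 and 3.93 in the KIT-high tumor T58.

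Calls for GRB14, KCNK2, SORBS2 and KCNJ15 survived the omission of any single tumor but were lost in 4, 2, 3 and 2 of the other alternatives, while those of RDH16, SAMD11, ACPP, ADCY2 and LTF were lost in 17, 18, 17, 19 and 16 of 26 omissions and those of the other 6 in 3 (PRKCZ) to 13 (SERINC2). Of the 308 lower probes, 19 were not well above background on any KIT-high array. Further called genes were the basement membrane genes ITGA6 and LAMB3, the sterol sensor INSIG1 (-1.82), the growth factor PDGFA (-1.76) and 5 probes of the factor NFIB (-1.93 to -1.58).

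Markers of keratinocytes differed alongside these genes. All 12 measured had a negative difference, with a median of -3.20, but none was called. KRT1, a keratin of the upper epidermis, ranged from 2.08 to 16.76 (median 3.92) in KIT-high and from 2.03 to 18.35 (median 16.87) in KIT-low tumors, and its difference of -5.18 ± 2.80 (SE) had an adjusted p of 0.247. KRT5, of the basal layer, went from 7.55 to 14.51 (median 8.25) and from 7.47 to 16.61 (median 14.90). TP63 was well above background on 0 KIT-high and 2 KIT-low arrays. The summed signal of the 12 markers, as log2, ran from 10.75 to 18.15 (median 12.43) in KIT-high and from 11.60 to 19.69 (median 18.04) in KIT-low tumors. The sum lay at separate levels, with no tumor between 13.69 and 16.44. The upper level held 4 of 13 KIT-high, 9 of 13 KIT-low and 13 of the 25 remaining tumors. The KIT-low tumors at the lower level were T117, T100, T57 and T121, and the KIT-high tumors at the upper level T6, T58, T90 and T82.

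With the summed keratinocyte signal as a further covariate, an alternative added after seeing the data, 36 probes were called higher and 65 lower, of which 31 and 57 were among the 155 and 308. The median difference of the 308 lower probes went from -1.69 to -1.37 and that of the 155 higher ones from 1.21 to 1.14, and every one kept its sign. KITLG gave -1.54 (limma adjusted p = 0.0128), MITF 1.24 (0.0117), FCER1A 1.03 (0.0236) and MS4A2 1.22 (0.0286) in that model, which no longer called them, while DENND4A (1.43, 0.00600) and the second MS4A2 probe (1.35, 0.00894) stayed called. CHMP4C went from -3.46 to -1.75 and PRKCZ from -3.16 to -2.09. For the lists the median of IgE receptor signaling went from 0.64 to 0.39, that of eicosanoid synthesis from 0.62 to 0.03 and that of mast cell transcription factors from 0.28 to 0.11. The part of epidermis in the remaining differences was not tested.

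**Figure D4:**
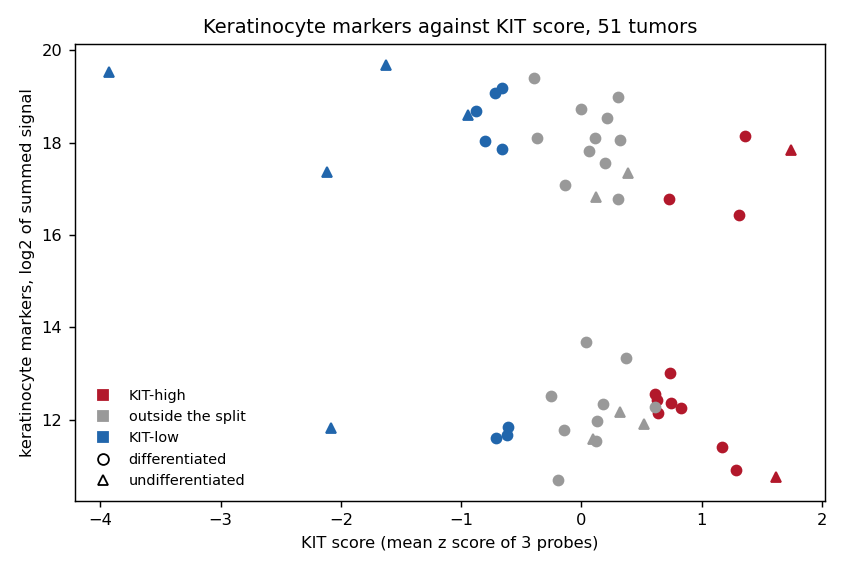
Summed signal of 12 keratinocyte markers (log2, y axis) against the KIT score (mean z score of 3 probes, x axis) of the 51 tumors. Colors mark the KIT groups, circles differentiated and triangles undifferentiated MCTs. Tumors lie either at 13.69 and below or at 16.44 and above, with 9 of 13 KIT-low and 4 of 13 KIT-high tumors at the upper level.

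Cholesterol synthesis genes, which glands of the skin also use, were negative in 16 of 18 cases, with a median of -0.71 and 1 call, INSIG1. SQLE, an early enzyme of the sterol branch, gave -1.99 (adjusted p = 0.0441). With the keratinocyte covariate the median was -0.35. Of 13 endothelial markers 10 were negative (median -0.50) and none was called. The endothelial sialomucin EMCN showed -1.37 (adjusted p = 0.0106). Fibroblast and matrix markers (24, median -0.25), T cell markers (14, median -0.26) and adipocyte markers (12, median -0.56) held no call. Of 17 macrophage markers 16 had a positive difference (median 0.51) and none was called. With the keratinocyte covariate their median was 0.14. For comparison with these counts of signs, 6685 of all 11679 genes were positive and 4994 negative. Of 10 neutrophil markers 7 were negative and 3 positive, with a median of -0.24. Among them LTF was called, and S100A9 showed -2.55 (adjusted p = 0.0262).

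Of 31 receptor tyrosine kinases other than KIT with a probe under their symbol, none was called, 22 were negative and the median was -0.35. Over all 11679 genes 0.402% were called higher and 0.899% lower, so a list of this size could well hold no call. Of all genes 4994 were negative. The neighbors of KIT on the chromosome and in the family, PDGFRA and KDR, showed -0.22 (95% interval -0.87 to 0.43) and 0.55 (95% interval -0.13 to 1.23). FGFR2 (-2.61, adjusted p = 0.0396), ERBB3 (-2.12, adjusted p = 0.0138) and NTRK3 (-1.97, adjusted p = 0.0124) had the most negative values. Within 5 Mb of KIT, 148 probes had a median of 0.13, against 0.10 for the other 657 of chromosome 13 and 0.087 over all probes. Of the 148, none was called higher and 1 lower, IGFBP7, an angiogenesis-related binding protein (-1.11, adjusted p = 0.00838), 1.96 Mb away. Over all probes 0.356% were called higher and 0.706% lower, so these counts lie near the general share.

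With KIT group held constant, 503 probes (1.15%) were called between undifferentiated and differentiated tumors, 298 higher and 205 lower, and 14 of them were also called for KIT. Of 58 mitosis genes none was called for KIT, with a median of 0.05, while 34 were called higher in undifferentiated tumors, with a median of 1.48. UCHL1, a deubiquitinase, showed -0.72 for KIT (adjusted p = 0.127) and 1.73 for the class (adjusted p = 0.00309). Reference tumors were classed partly by mitotic index, and the study ties most of its predictor transcripts to mitosis. A high class value of the mitosis list was thus built into the class. Since many classes were predicted from these arrays, the class values are a description.

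**Figure D5:**
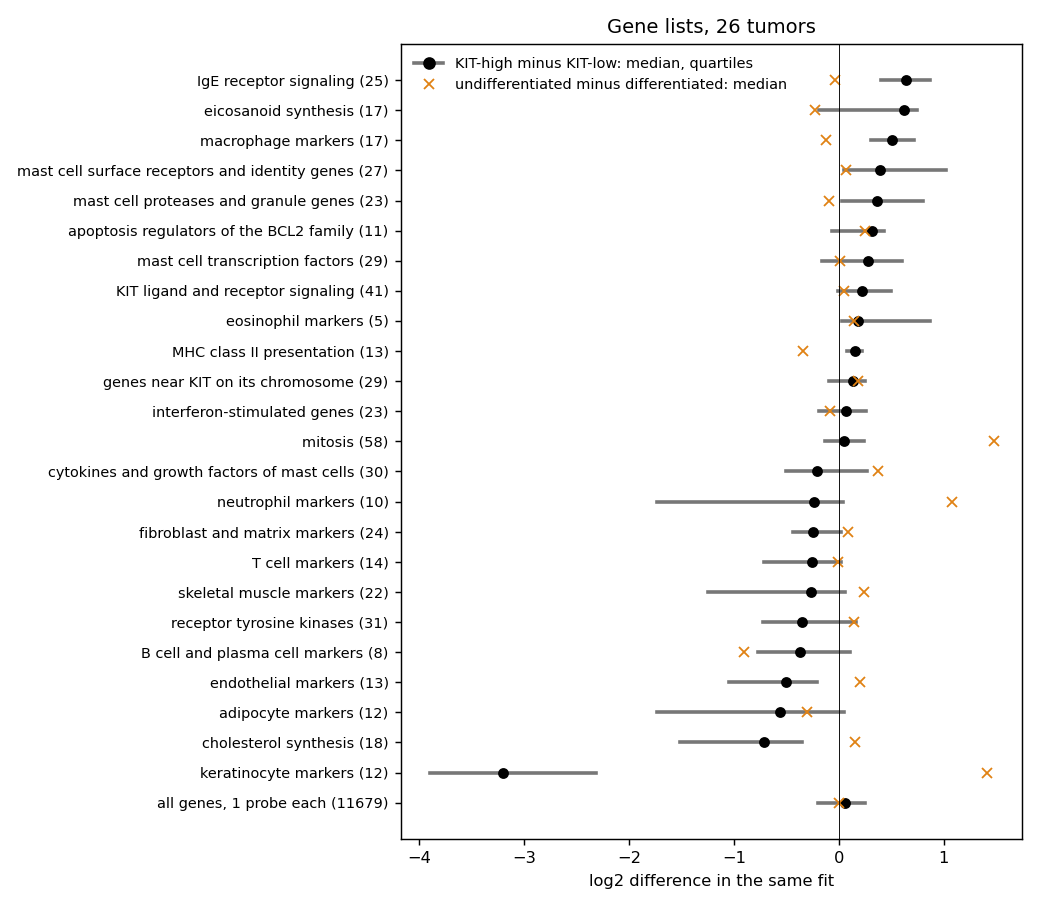
Log2 difference (x axis) of 24 gene lists and of all genes (y axis, number of measured genes in brackets). Black circles and gray bars give the median and quartiles of KIT-high minus KIT-low, and orange crosses the median of undifferentiated minus differentiated tumors in the same model. The keratinocyte list stands lowest for KIT at -3.20, and the mitosis list lies at 0.05 for KIT and 1.48 for the class. The class was itself defined partly by mitosis.

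The 25 tumors outside the split, with scores from -0.391 to 0.608, offered values that the groups had not used. There the slope of each probe on the KIT score was fitted with the class as a covariate. Of the 155 probes called higher, 97 (62.6%) had a positive slope, against 53.2% of all probes, and of the 308 called lower 235 (76.3%) had a negative slope, against 46.8%. In the same 25 tumors 296 of the 308 correlated positively with the summed keratinocyte signal (median r 0.47, against -0.12 over all probes). Of the 155 higher probes, 14 correlated positively with that signal (median r -0.28). The slope model had no keratinocyte term, so neither the 155 nor the 308 slopes are separate observations. At an unadjusted p under 0.05, 4 of the 155 and 2 of the 308 had a slope in the same direction, while 3.17% of all probes had such a p in either direction. MITF had a slope of -0.08 (p = 0.871), KITLG 0.41 (p = 0.464), FCER1A 0.13 (p = 0.780) and MS4A2 0.35 (p = 0.482), unadjusted limma values. Larger slopes were those of FCER1G (1.11, p = 0.0275), BTK (1.15, p = 0.0364) and SLC18A2 (1.05, p = 0.0240). Differences seen between the extreme tumors were mostly not detectable gene by gene in these 25 tumors. The part of their narrower range of KIT levels in this was not tested.

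At an adjusted p under 0.05, 1 probe (0.00229%) passed in these 25 tumors, A_11_P094304, which the files place at chr11:4173686-4173745 and give no gene name. It is shown because it alone passed.
A_11_P094304: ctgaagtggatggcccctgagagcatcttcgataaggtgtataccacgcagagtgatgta
Its level was 12.39 to 13.61 (median 12.76) in KIT-high, 11.53 to 12.57 (median 12.00) in the remaining and 8.11 to 11.38 (median 11.18) in KIT-low tumors, with no overlap between the extreme groups. The slope was 0.99 ± 0.108 (SE; limma adjusted p = 0.000111), and the difference in the split 2.08 ± 0.269 (SE; limma adjusted p = 0.000475). Over the 51 tumors its level followed the KIT score with r = 0.995 and a rank correlation of 0.987, as closely as the KIT probes followed each other. Its longest run shared with a KIT probe is 8 bases, which tells nothing of the parts of KIT RNA outside those probes. Whether it hybridizes to KIT RNA was not tested, since the full transcript was not used here.

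Among genes with a symbol, those most like the KIT score over the tumors were SLC45A3 (r = 0.795), RAB32 (0.794, 45 tumors), a GTPase of lysosome-related organelles, HPGD (0.759), SLC29A4 (0.746, 49 tumors) and MS4A2 (0.735, by another probe than above). Rank correlations were 0.687, 0.743, 0.697, 0.659 and 0.698. These values describe the same arrays on which the score was computed.

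Whether the KIT difference itself depended on the class was examined with an interaction term in the 26 tumors. At an adjusted p under 0.01, 4 of 43352 probes (0.00923%) passed. With 2 undifferentiated tumors in the KIT-high group the term rests on those 2, and 0.277% of probes passed without T49 and 0.218% without T90.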

How the data were processed

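Per the file headers, the authors extracted each scan with Agilent Feature Extraction, and the deposited values are intensities after background subtraction within each array, not yet normalized between arrays. The authors also deposited a table of intensities quantile-normalized over the 51 arrays, used here as an alternative. Columns outside the 51 arrays: 0. Here log2 intensities of the deposited scans were quantile-normalized, 43803 spots that are not controls were averaged to 43603 probes, and outlier-flagged spots were set to missing, except in the KIT score. Symbols came from the files, updated through RefSeq names of the UU_Cfam_GSD_1.0 annotation.

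The comparison was fitted with limma 3.58.1 in R 4.3.3 (statmod 1.5.0 for the random block), two-sided, with Benjamini-Hochberg adjustment, and tested on simulated data. Figures were drawn with matplotlib 3.10.9. Each tumor is 1 array from 1 dog, and the number of arrays limits the precision. Named genes were the 15 largest called differences in each direction, well above background on most arrays of the higher group, 25 fixed genes, up to 4 per list, probes within 5 Mb of KIT and the 5 most correlated genes. Lists use 1 probe per gene, the brightest, and were written from general knowledge. Members, lists and tests were chosen with earlier results of these data known. Alternatives were other normalizations, a dim filter, blocks, sex, other limits, the methods' t-test, other KIT groups and the omission of each tumor.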

Additional observations from a re-analysis of the deposited data

Results flagged for a closer look

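The interaction term in limma, which sets the KIT difference in undifferentiated MCTs against that in differentiated MCTs, passed an adjusted p under 0.01 in 4 probes, but each rests on 1 tumor or lies below background, so that no dependence on the class is shown. The difference of the differences, undifferentiated minus differentiated, was 4.29 (log2) for TC47358 (adjusted p = 1.06e-06), 1.34 for CF412532 (adjusted p = 1.24e-05), 1.09 for LOC610950 (adjusted p = 4.34e-05) and 2.97 for LOC607972 (adjusted p = 0.000287). TC47358 had an unflagged value in 1 of the 2 undifferentiated KIT-high tumors, 6.10, against 1.90 to 3.07 in all other tumors measured. LOC607972 rested on 1 tumor as well, at 13.72 against means of 10.61 to 10.71 in the other groups. CF412532 and LOC610950 were not well above background on any of the 26 arrays. The cause of these values was not tested.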

How the results depend on the processing

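Of 44 alternatives to the 463 calls, 26 stayed near that count and 18 moved by more than the set ratio. The count was 815 without the class, 17 in differentiated tumors alone (52.9% of them higher, against 33.5%), 161 after normexp, 203 with scan session as a block, 261 with sex as a covariate, 3751 at an adjusted p under 0.05 without a fold limit (53% higher), 2147 by the methods' t-test unadjusted (580 adjusted), 1093 with all arrays in 3 groups, 830 with the top and bottom 10 and 3408 with the score as a continuous variable (51.5% higher). With the keratinocyte signal, chosen after seeing the data, 36 higher and 65 lower probes were called in place of 155 and 308. With the top and bottom 17 it was 448 (21.7% higher), with slide as a random block 596. Omitting 1 tumor gave 206 to 954, with the count moved most by T47, T50, T81, T49, T103, T90, T100 and T121. Scaling to the 75th percentile moved the median difference of all probes from 0.087 to 0.173 and gave 427 calls. The interaction passed in 0.00923% of probes, in 0.0185% at an adjusted p under 0.05, in 0.00461% with the 75th percentile and in 0.00923% to 0.277% when an undifferentiated tumor was omitted (added after seeing the data). The class gave 1017 with all arrays. The slope outside the split gave 1 probe in every setting run. Among 48 named genes, 1614 of 2061 comparisons kept direction and side of the limits, 412 lost and 26 gained the call, and 9 changed sign, all of CTSG, from -0.06 to 0.02 with session, 0.03 with all arrays, 0.31 with 10 and 0.04 with 17 tumors per group, 0.07 with the brightest KIT probe, 0.12 with the continuous score and -0.24 to 0.25 when a tumor was omitted. The causes were not tested. Named genes that were not called in the main comparison had no call to lose. No paired analysis was possible because each tumor comes from 1 dog and replicate numbers only name samples. Signal near background limits the lower genes, 19 of whose probes were not well above it on any KIT-high array.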

Other observations

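For 3 of the 24 gene lists, chosen after their values were seen, most slopes on the KIT score in the 25 tumors outside the split had 1 sign. Of 22 skeletal muscle markers 20 had a positive slope there (median 1.55 per unit of score) and of 23 interferon-stimulated genes 21 (median 0.91), while their medians between KIT-high and KIT-low tumors were -0.27 and 0.07. All 18 cholesterol synthesis genes had a negative slope (median -0.35), as 16 did between the extremes. Over all genes 6076 of 11678 slopes were positive. No gene of these lists had a slope past an adjusted p of 0.05 and no test compared these tumors with the extremes, so the counts are a description.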
